A study of Mus musculus with 9 samples.

Results

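The expression of 9 ion channel genes that set calcium entry, calcium release and membrane voltage in smooth muscle was compared between 3 populations of mesenchymal cells sorted from fetal mouse lung. The genes were Cacna1c, Cacna1d, Cacna1h, Cacnb2, Kcnma1, Kcnmb1, Itpr1, Ryr3 and Ano1, chosen by name, and they are 9 of the 24306 genes on the array. They are read by the 32 of 62976 array features whose platform gene symbol is one of these names: 1 feature for Ano1, 2 for Kcnmb1, 3 each for Cacna1d and Ryr3, 4 each for Cacna1c, Cacna1h and Itpr1, 5 for Cacnb2 and 6 for Kcnma1. All 9 genes had a value on all 9 arrays, and no filter on low values was applied to them. RNA of each population was amplified and hybridised to one-colour Agilent arrays, 3 arrays per group, with 3 mice per group in the design. All groups came from embryos whose mothers received tamoxifen, 0.1 mg per g body weight, at E15.5, and RFP-positive cells were sorted from lung at E18.5 without culture. The SMC group was high for Acta2 (smooth muscle actin) and low for PDGFRA (a platelet-derived growth factor receptor), and is labelled as airway and vessel smooth muscle. MYF cells were high for PDGFRA and low for Acta2, and are labelled as progenitors of alveolar myofibroblasts. The INM group was low for both proteins and is labelled as intermediate, undifferentiated progenitors. The mouse strain, the RFP allele and the driver of its recombination are not given in the sources used here. Values are log2 signals, so a difference of 1 is a doubling of signal, and the number of arrays limits their precision.

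In smooth muscle, depolarisation opens voltage-gated calcium channels, and the calcium that enters, with calcium released from the sarcoplasmic reticulum through inositol trisphosphate receptors and ryanodine receptors, activates myosin light chain kinase and contraction. Calcium also opens large-conductance (BK) potassium channels, which return the membrane towards rest, and calcium-activated chloride channels, which depolarise it further. In airway smooth muscle this balance is known for setting tone and the response to constrictors, while fibroblasts carry some of the same channels with other partners.

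The array of SMC replicate 1 stood apart. Across features, the 8 pairs of arrays that include it had r = 0.426 to 0.452, and the remaining 28 pairs had r = 0.864 to 0.97. Tests were therefore run on all 9 arrays and on the 8 arrays without it (2 SMC, 3 MYF and 3 INM arrays). Means and differences are of the 8 arrays unless all 9 are named. Acta2 was at 14.77, 15.88 and 14.79 in SMC replicates 1, 2 and 3, 13.87 to 14.06 in MYF and 13.43 to 13.84 in INM, so each group held smooth muscle actin RNA. Pdgfra was at 13.04 to 13.87 in MYF, 8.30 to 8.66 in INM and 1.98, 6.93 and 6.89 in SMC. Epithelial genes were uneven across groups. Sftpc, a surfactant gene, was at 15.78 to 15.99 in INM, 13.56, 15.30 and 15.08 in SMC and 13.27, 10.37 and 12.05 in MYF. The median of all features was 5.17. Foxj1, a gene of ciliated cells, was below that median on every MYF array (2.86 to 3.44) and on SMC replicate 1 (3.48). The mean of 15 epithelial markers was 6.87 to 7.04 in MYF and 12.33 to 12.65 in INM. RNA of heart muscle was highest on SMC replicates 2 and 3. The mean of 21 heart muscle markers was 11.43 and 9.34 there, 7.01 on SMC replicate 1, 7.12 to 7.54 in INM and 5.29 to 6.00 in MYF. Single markers varied. Myl7, an atrial myosin light chain gene, was at 14.36 and 12.57 on SMC replicates 2 and 3 and 10.02 to 10.62 in INM. It was at 3.96 to 5.64 in MYF and 4.77 on SMC replicate 1, where Csrp3, another marker of the list, was at 8.17. 

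Of the 9 channel genes, Cacnb2 was higher and Ano1 lower in MYF than in both other groups, and Kcnmb1 was brightest in SMC replicates 2 and 3. By limma with Benjamini-Hochberg adjustment over all genes, 2 of the 9 passed in SMC vs MYF, where 8.19% of all genes tested passed, and 2 of the 9 passed in MYF vs INM, where 10.7% passed. In SMC vs INM none of the 9 passed by limma, against 0.247% of all genes. There 2 of the 9 had an unadjusted limma p under 0.05, as did 3072 of 24282 genes tested. With all 9 arrays none of the 9 passed by limma in SMC vs MYF, SMC vs INM or MYF vs INM, where 0.671%, 0% and 1.1% of all genes passed. In the same order 2, 0 and 2 of the 9 had an unadjusted limma p under 0.05. Over all genes tested these were 3628 of 24289, 1935 of 24286 and 2342 of 24280. MYF vs INM rests on the same MYF and INM arrays in both fits, so its differences are the same. Only the SE changes, since the fit shares 1 estimate of the spread over all groups. Fitted with only the groups compared, MYF vs INM had 2 of the 9 past limma's test, and 3635 of all genes. Non-overlapping groups were more frequent. MYF lay wholly above INM for 3 genes (Cacna1h, Cacnb2 and Kcnma1; 18.6% of all genes) and wholly below it for Ano1 (16.5%). SMC replicates 2 and 3 lay wholly above INM for Cacna1h, Cacnb2 and Kcnmb1 (12.9% of all genes). They lay above MYF for Kcnmb1, Ryr3 and Ano1 (17.9%) and below it for Cacnb2 (22.3%), and below INM for none (15.3%). With SMC replicate 1 included, SMC lay above MYF for Ryr3 and Ano1 (9.27% of all genes), below it for Cacnb2 (12.1%), above INM for Cacna1h (6.8%) and below INM for none (8.47%). The median difference of the 9 genes was 0.62 in SMC vs MYF, 0.51 in SMC vs INM and -0.14 in MYF vs INM, beside -0.05, -0.03 and 0.05 over all genes tested. In SMC vs INM all 9 differences were above 0, while with all 9 arrays 5 were above and 4 below.

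**Figure D1:**
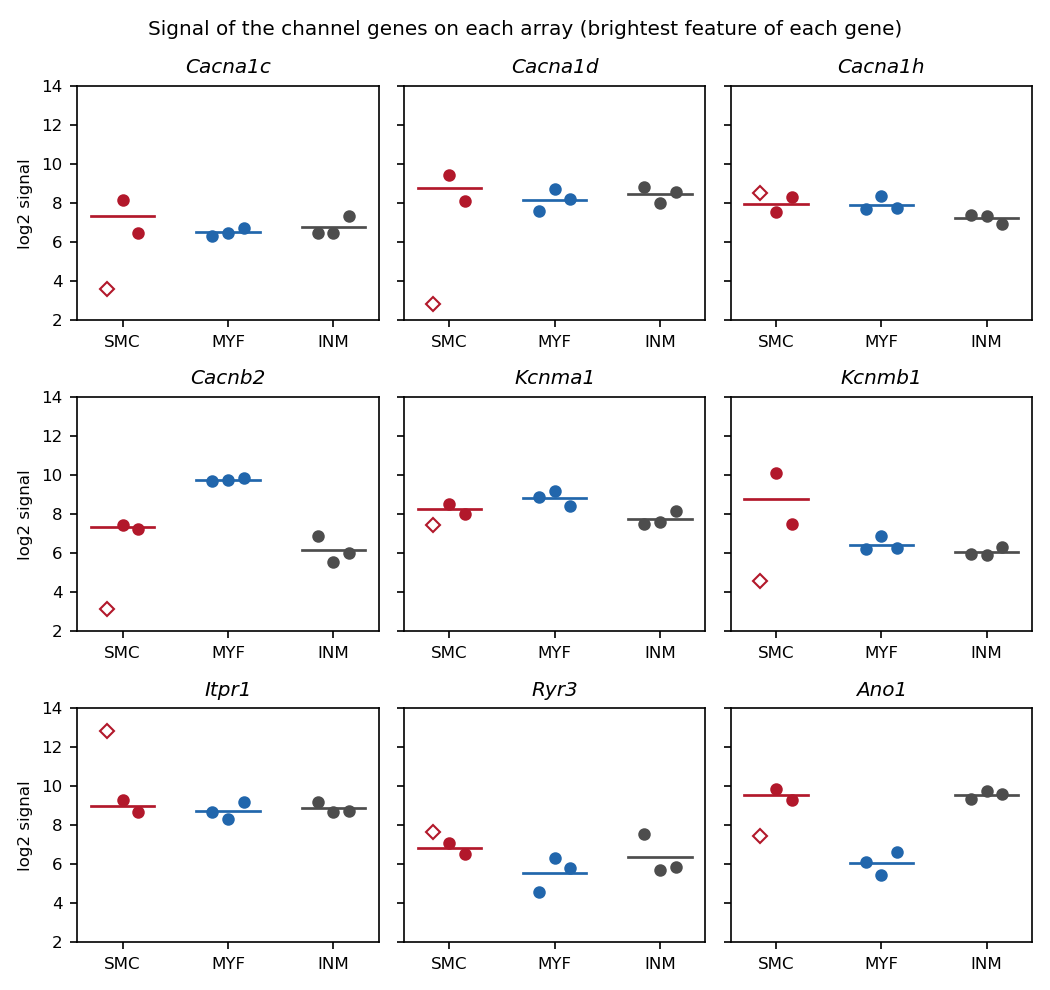
Log2 signal of each channel gene on each array (y axis) by group (x axis), at the feature with the highest mean of that gene. Points are arrays, the open diamond is SMC replicate 1, and lines are group means, in SMC of replicates 2 and 3 only. Cacnb2 sits at 9.70 to 9.84 in MYF, above every other array, and Ano1 at 5.43 to 6.63 in MYF, below every other array.

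Start-site windows of RefSeq (300 bases, from 250 before to 50 after a start, GRCm38.p6) were matched for 6 of the 9 genes, 10 windows in all, and those of Cacna1h, Itpr1 and Ryr3 were not used here. The windows of Cacnb2, Kcnmb1 and Ano1 are printed because these genes differed most between groups. Capitals mark the GC box GGGCGG, or its reverse complement, and the strand named is that of the gene.
Cacnb2 upstream start, chr2:14604056-14604355, plus strand: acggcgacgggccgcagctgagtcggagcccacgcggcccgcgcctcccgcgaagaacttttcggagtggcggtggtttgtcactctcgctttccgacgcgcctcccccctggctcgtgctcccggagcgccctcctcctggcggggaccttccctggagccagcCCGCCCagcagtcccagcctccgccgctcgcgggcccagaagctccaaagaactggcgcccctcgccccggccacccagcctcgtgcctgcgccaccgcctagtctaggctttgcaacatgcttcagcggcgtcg
Cacnb2 downstream start, chr2:14823842-14824141, plus strand: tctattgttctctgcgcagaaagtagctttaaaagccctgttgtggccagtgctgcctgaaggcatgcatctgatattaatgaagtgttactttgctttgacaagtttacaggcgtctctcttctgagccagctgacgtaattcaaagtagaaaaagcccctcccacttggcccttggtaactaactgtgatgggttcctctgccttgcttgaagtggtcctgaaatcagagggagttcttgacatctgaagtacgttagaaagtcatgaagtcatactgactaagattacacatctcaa
Kcnmb1, chr11:33962763-33963062, plus strand: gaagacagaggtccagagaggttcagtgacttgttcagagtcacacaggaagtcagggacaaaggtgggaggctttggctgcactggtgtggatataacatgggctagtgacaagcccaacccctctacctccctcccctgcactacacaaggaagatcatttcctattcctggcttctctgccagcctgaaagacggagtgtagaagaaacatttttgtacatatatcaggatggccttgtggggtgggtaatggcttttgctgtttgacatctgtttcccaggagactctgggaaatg
Ano1, chr7:144738524-144738823, minus strand: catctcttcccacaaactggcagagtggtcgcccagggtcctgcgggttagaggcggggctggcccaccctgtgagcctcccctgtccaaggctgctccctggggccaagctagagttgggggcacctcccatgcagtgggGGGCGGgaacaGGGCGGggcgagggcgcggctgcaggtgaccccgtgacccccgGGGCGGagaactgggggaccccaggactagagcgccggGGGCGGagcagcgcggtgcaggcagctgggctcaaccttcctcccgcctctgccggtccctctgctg
A GC box stood in 5 of the 10 channel gene windows, against 35.7% of 32851 windows of all genes. Cacnb2 has an upstream start with 71.7% G and C and 35 CpG dinucleotides, and a downstream start with 44% and 4. Kcnmb1 had 49.7% G and C and 1 CpG, and Ano1 71.7% and 18 CpG with 4 GC boxes. The CArG box, the motif that serum response factor binds at many contractile genes, matched none of the 10 member windows on either strand, and 1.63% of all windows held one. The TATA sequence TATAAA was in 1 member window, the start of Cacna1d with 40.3% G and C (3 matches, 2 of them overlapping on opposite strands), and in 13.6% of all windows. GGAATG, the M-CAT core, matched no member window and 14.7% of all windows. A match describes the letters in the window.

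Cacnb2 encodes a beta subunit that brings the pore of voltage-gated calcium channels to the membrane and tunes its opening. Its brightest feature was at 9.70, 9.77 and 9.84 in MYF replicates 1, 2 and 3. It was at 7.45 and 7.26 in SMC replicates 2 and 3, at 3.13 in SMC replicate 1, and at 6.91, 5.57 and 6.02 in INM. Every MYF array was above every other array, and the 3 MYF values lay within an SD of 0.07. Cacnb2 was 12.2-fold higher in MYF than in INM (log2 difference 3.61 ± 0.36, SE, n = 3 and 3, limma adjusted p = 0.00114). It was 5.33-fold higher in MYF than in SMC, with SMC minus MYF at -2.41 ± 0.41 (n = 2 and 3, limma adjusted p = 0.0124). SMC minus INM was 1.19 ± 0.41 with a 95% interval of 0.25 to 2.13 and did not pass (limma adjusted p = 0.298). The order was MYF, SMC, INM, in which SMC and INM were not separated by the test. With all 9 arrays the differences were 3.61 ± 1.06 in MYF vs INM and -3.82 ± 1.06 in SMC vs MYF. Neither passed limma's test (adjusted p = 0.197 and 0.162), and SMC minus INM was -0.22 ± 1.06. In MYF vs INM only the SE changed, because SMC replicate 1 enters the shared spread and neither group mean. Taking the mean of all its features, SMC minus MYF on 9 arrays was -2.25 and passed (limma adjusted p = 0.0328). The SMC vs MYF call was lost without MYF replicate 3 (limma adjusted p = 0.0502), while the difference there was -2.38.

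Other Cacnb2 features gave the same order in part. In MYF vs INM 4 of 5 features passed limma when every feature was tested (8 of the 32 channel features against 8.17% of all features), with differences of 3.14 to 4.06, and the fifth, annotated to a cDNA clone and at 2.81 to 4.67 on the 8 arrays, differed by 0.60 ± 0.50. In SMC vs MYF all 5 were lower in SMC and 3 passed limma (4 of the 32 channel features against 6.69% of all features, and in SMC vs INM 0 by limma against 0.23%), at -2.21 to -4.07. On SMC replicate 1 the features disagreed, with 3.13 and 2.84 at those annotated to RefSeq mRNAs and 8.36, 5.57 and 8.28 at those annotated to cDNA clones. With all 9 arrays 1 channel feature of 32 passed in MYF vs INM (1.05% of all features), that of Cacnb2 numbered 32510, at 4.06 ± 0.56 (limma adjusted p = 0.0179). Alveolar myofibroblast markers were high on the same arrays as Cacnb2: 12 of 13 passed higher in MYF than INM (4.35% of all genes), and 6 of 13 with all 9 arrays (0.173%), with a mean log2 signal of the list of 11.64 to 11.93 in MYF, 8.09 to 8.61 in INM and 7.97 to 8.41 in SMC replicates 2 and 3. Pdgfra, used for the sort, is in that list, and the part of these markers in the Cacnb2 result was not tested. In bulk samples such as these, fewer cells of a type and less RNA per cell cannot be told apart.

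**Figure D2:**
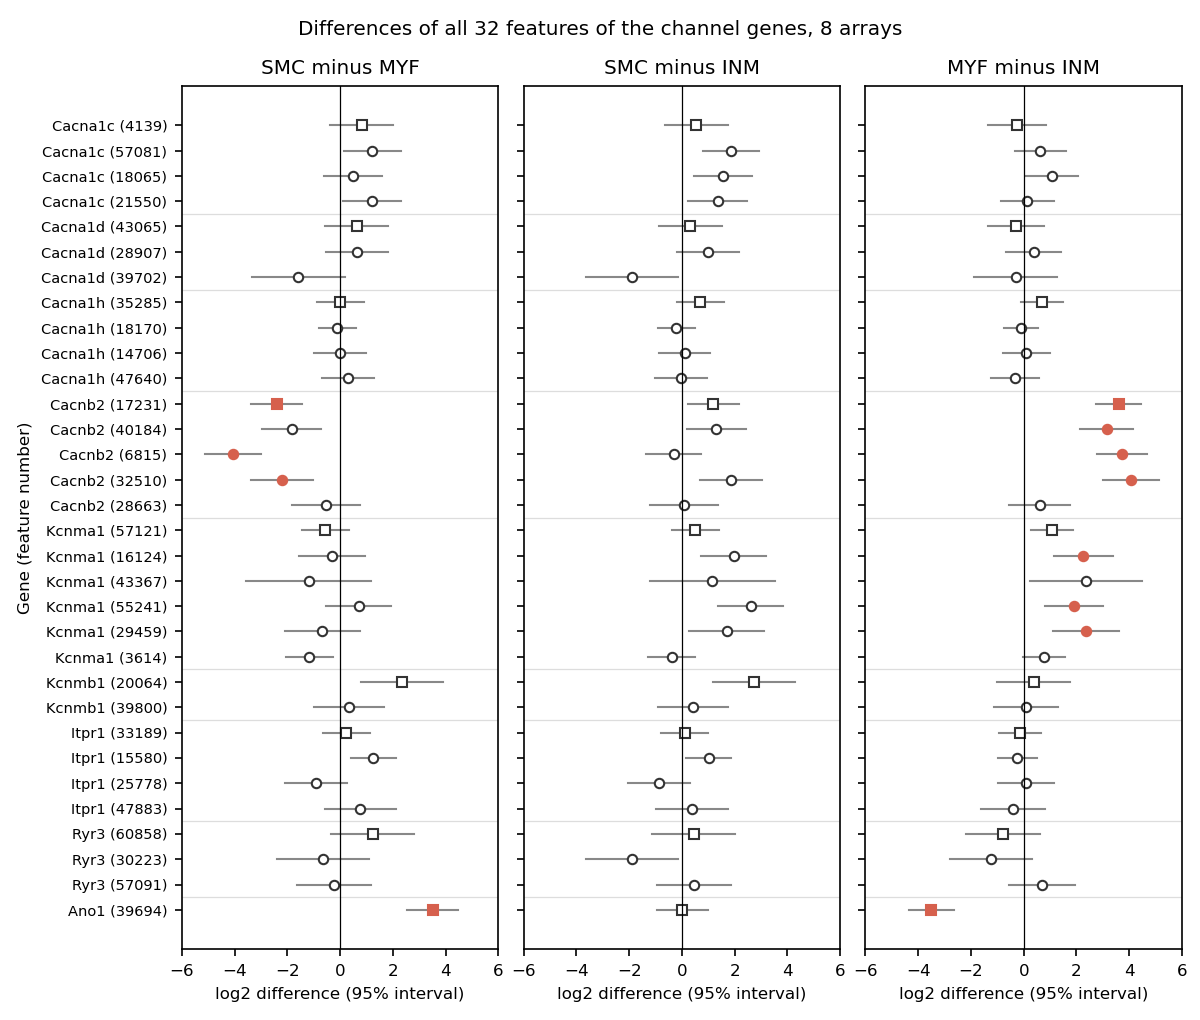
Log2 difference (x axis) of every feature of the 9 channel genes (y axis, with the feature number) in the 3 comparisons on 8 arrays. Lines are 95% intervals, squares are the feature with the highest mean of a gene, and filled red symbols passed limma over all features. Filled symbols belong to Cacnb2 and Ano1 in SMC minus MYF, to Cacnb2, Kcnma1 and Ano1 in MYF minus INM, and to no feature in SMC minus INM.

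The calcium channel pores Cacna1c, Cacna1d and Cacna1h did not pass the test in any comparison. Cacna1c encodes the L-type pore that carries most voltage-gated calcium entry in smooth and heart muscle. It was at 8.14 and 6.5 in SMC replicates 2 and 3 and 3.59 in replicate 1, at 6.33, 6.46 and 6.75 in MYF, and at 6.5, 6.45 and 7.37 in INM. SMC replicate 2 was above all MYF and INM arrays and replicate 3 was among them. The difference was 0.81 (95% interval -0.39 to 2.01) in SMC vs MYF and 0.55 (-0.65 to 1.75) in SMC vs INM, limma adjusted p = 0.367 and 0.711. The 3 other Cacna1c features had SMC replicates 2 and 3 at 7.07 and 7.55, 7.10 and 5.63, and 5.54 and 5.5. Their INM ranges were 4.72 to 5.89, 4.76 to 4.84 and 3.73 to 4.41, so both SMC arrays were above INM at each of the 3, and none of these passed limma. On all 9 arrays the brightest feature differed by -0.43 ± 1.00 in SMC vs MYF and -0.69 ± 1.00 in SMC vs INM.

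Cacna1d, a second L-type pore that opens at lower voltage and is known from pacemaker and endocrine cells, was similar in level across groups. Its brightest feature was at 9.46 and 8.12 in SMC replicates 2 and 3, 7.61, 8.74 and 8.19 in MYF and 8.84, 8.03 and 8.56 in INM, and the groups overlapped. SMC replicate 1 was at 2.83. The differences were 0.62 ± 0.51 in SMC vs MYF, 0.32 ± 0.51 in SMC vs INM and -0.30 ± 0.46 in MYF vs INM (limma adjusted p = 0.485, 0.838 and 0.76). On all 9 arrays SMC minus MYF was -1.37 ± 1.45 and SMC minus INM -1.67 ± 1.45, the opposite sign. A feature annotated to a cDNA clone went the other way, with SMC replicates 2 and 3 at 5.01 and 4.89 and INM at 5.86 to 8.20. Cacna1h encodes a T-type pore, which opens near resting voltage. It was at 7.55 and 8.32 in SMC replicates 2 and 3, 7.69, 8.37 and 7.73 in MYF and 7.42, 7.36 and 6.96 in INM, with SMC replicate 1 at 8.51. INM was the lowest group, with no array reaching those of SMC or MYF, and SMC and MYF overlapped. The difference was 0.69 ± 0.37 in SMC vs INM and 0.69 ± 0.34 in MYF vs INM, with limma adjusted p = 0.499 and 0.257, and 0.01 ± 0.37 in SMC vs MYF (95% interval -0.86 to 0.87). SMC minus INM was 0.88 ± 0.47 and SMC minus MYF 0.20 ± 0.47 on all 9 arrays. The 3 other Cacna1h features differed by -0.34 to 0.30 between groups, while SMC replicate 1 read 10.35 and 11.80 at those annotated to RefSeq mRNAs, against 6.97 to 7.46 and 4.87 to 6.02 on the other arrays.

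Kcnma1 and Kcnmb1 encode parts of the BK channel, which calcium and depolarisation open together. Kcnma1 is the pore. Its brightest feature was at 8.90, 9.17 and 8.40 in MYF, 8.51 and 8.03 in SMC replicates 2 and 3, 7.46 in SMC replicate 1, and 7.51, 7.59 and 8.16 in INM. MYF was wholly above INM, and SMC overlapped both. MYF minus INM was 1.07 ± 0.33, a 2.1-fold difference, and did not pass (limma adjusted p = 0.083), though it did when genes below the median level were left out (adjusted p = 0.0418). All 6 features had a higher mean in MYF than in INM, and when every feature was tested 3 of the 6 passed limma, at 2.26 ± 0.49, 1.91 ± 0.48 and 2.36 ± 0.55 (adjusted p = 0.0288, 0.0493 and 0.0374). Taking the mean of all features of the gene, the difference was 1.79 and passed (limma adjusted p = 0.0208). On all 9 arrays no Kcnma1 feature passed. SMC minus INM was above 0 at 5 of the 6 features, at 0.51 to 2.61, and none passed limma. The features also differed within SMC, since one was at 7.92 in replicate 2 and 3.93 in replicate 3, and another at 7.06 and 6.84.

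Kcnmb1 encodes the beta subunit that makes the BK channel more sensitive to calcium and is known as a mark of smooth muscle. It was at 10.10 in SMC replicate 2 and 7.49 in replicate 3, and at 4.60 in replicate 1. MYF was at 6.20, 6.86 and 6.26 and INM at 5.98, 5.89 and 6.31. SMC replicates 2 and 3 were above all MYF and INM arrays, which overlapped each other, while replicate 1 was below them all. SMC minus MYF was 2.35 ± 0.67, a 5.11-fold difference, and SMC minus INM 2.74 ± 0.67, 6.66-fold (n = 2 and 3), and neither passed (limma adjusted p = 0.0725 and 0.171). With genes below the median level left out, SMC vs MYF passed (limma adjusted p = 0.0474). The size rested on SMC replicate 2: with replicate 2 as the only SMC array, SMC minus INM was 4.04 and SMC minus MYF 3.66, both past limma's test (adjusted p = 0.00737 and 0.00506), and with replicate 3 as the only SMC array they were 1.43 and 1.05 (adjusted p = 0.102 and 0.124). In both of these the lone SMC array was assumed to vary like the other groups. With all 9 arrays the differences were 0.95 ± 1.15 and 1.34 ± 1.15. The other Kcnmb1 feature was dim, at 2.25 to 4.30. Contractile genes and heart muscle markers were also higher on SMC replicate 2 than on replicate 3. The mean signal of 24 contractile genes was 12.43 and 11.33, against 11.09 to 11.16 in MYF and 10.06 to 10.79 in INM. That of 21 heart muscle markers was 11.43 and 9.34, against 5.29 to 6.00 and 7.12 to 7.54. SMC replicate 1 was at 9.27 and 7.01 for these 2 lists. Of the contractile genes 4 passed limma higher in SMC than MYF (4.66% of all genes) and 7 higher in MYF than INM (4.35%). None passed limma in SMC vs INM (0.247%), and none in any comparison with all 9 arrays (0.671%, 0% and 1.1% in SMC vs MYF, SMC vs INM and MYF vs INM). Of the heart markers 16 of 21 passed higher in SMC than MYF (4.66% of all genes) and 2 of 21 higher in SMC than INM (0.0906%). With all 9 arrays these were 5 of 21 (0.379%) and 0 of 21 by limma (0%). Their part in the Kcnmb1 values was not tested.

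Itpr1 and Ryr3, calcium release channels of the sarcoplasmic reticulum, did not pass the test in any comparison. Itpr1 encodes an inositol trisphosphate receptor, which releases stored calcium after agonists act on their receptors. It was at 9.29 and 8.66 in SMC replicates 2 and 3, 8.70, 8.32 and 9.19 in MYF and 9.20, 8.66 and 8.75 in INM, and all 3 groups overlapped. The differences were 0.24 (95% interval -0.63 to 1.11) in SMC vs MYF, 0.10 (-0.77 to 0.97) in SMC vs INM and -0.14 (-0.92 to 0.64) in MYF vs INM. SMC minus MYF was 1.52 ± 0.98 and SMC minus INM 1.38 ± 0.98 on all 9 arrays. SMC replicate 1 read 12.82 at this feature and 6.17 at a second one, where SMC replicates 2 and 3 were at 9.85 and 9.47, above the 8.00 to 8.68 of MYF and the 8.30 to 9.00 of INM. That second feature did not pass limma either. Ryr3 encodes a ryanodine receptor found at low abundance in smooth muscle and other tissues. It was at 7.09 and 6.53 in SMC replicates 2 and 3, 7.67 in SMC replicate 1, 4.59, 6.33 and 5.79 in MYF and 7.54, 5.69 and 5.87 in INM. SMC was wholly above MYF, with or without replicate 1, and INM overlapped both. SMC minus MYF was 1.24 ± 0.68 and MYF minus INM -0.80 ± 0.61 (limma adjusted p = 0.291 and 0.489), and on all 9 arrays SMC minus MYF was 1.53 ± 0.69 (adjusted p = 0.347). A second Ryr3 feature was at 5.42 and 3.38 in SMC replicates 2 and 3 and 5.95 to 6.66 in INM, the opposite order, so the features of Ryr3 did not give 1 direction.

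Ano1 encodes a calcium-activated chloride channel of airway smooth muscle, which is also known from secretory airway epithelium. It was at 9.85 and 9.29 in SMC replicates 2 and 3, 7.47 in SMC replicate 1, 9.32, 9.75 and 9.60 in INM, and 6.12, 5.43 and 6.63 in MYF. Every MYF array was below every other array, SMC replicate 1 included. SMC was 11.4-fold above MYF (3.52 ± 0.41, n = 2 and 3, limma adjusted p = 0.00384) and INM 11.3-fold above MYF, with MYF minus INM at -3.50 ± 0.37 (n = 3 and 3, limma adjusted p = 0.00129). SMC and INM were not separated, at 0.02 with a 95% interval of -0.93 to 0.96. Ano1 on all 9 arrays differed by 2.81 ± 0.67 in SMC vs MYF and -3.50 ± 0.67 in MYF vs INM, neither past limma's test (adjusted p = 0.112 and 0.0515). As for Cacnb2, only the SE of MYF vs INM changed with SMC replicate 1. The gene has 1 feature, so no second reading exists on this array.

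Epithelial and endothelial markers were also lower in MYF than in INM. All 15 epithelial markers passed lower in MYF than INM (6.35% of all genes) and higher in SMC than MYF (4.66%), and with all 9 arrays 8 of 15 (0.927%) and 5 of 15 (0.379%) did. Their mean signal was 6.87 to 7.04 in MYF, 12.33 to 12.65 in INM, and 9.79, 10.38 and 12.07 in SMC replicates 1, 2 and 3. Epcam, an epithelial adhesion gene, was at 4.80 to 5.87 in MYF, 9.86 to 10.49 in INM and 3.63, 8.22 and 10.43 in SMC. Of 12 endothelial markers 11 passed lower in MYF than INM (4 of 12 with all 9 arrays), with means of 5.36 to 6.00 and 9.57 to 9.72, and SMC replicates 1, 2 and 3 at 5.33, 8.83 and 9.21. On SMC replicate 1 the endothelial mean (5.33) was near the lowest MYF mean (5.36), and single markers went both ways. Vwf was at 9.38 there and 5.15 to 5.73 in MYF, while Kdr was at 3.74 and 3.95 to 5.94. In SMC replicates 2 and 3 Ano1 was at 9.85 and 9.29, and the epithelial mean was at 10.38 and 12.07. The part of these cell types in the Ano1 result was not tested. Every epithelial marker had a value on at least 1 MYF array, but a value does not by itself show that a gene was expressed. Foxj1, for 1, was at 2.86 to 3.44 in MYF. Cdh1, an epithelial adhesion gene, had an empty cell on MYF replicates 1 and 2 and is left out of their means.

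**Figure D3:**
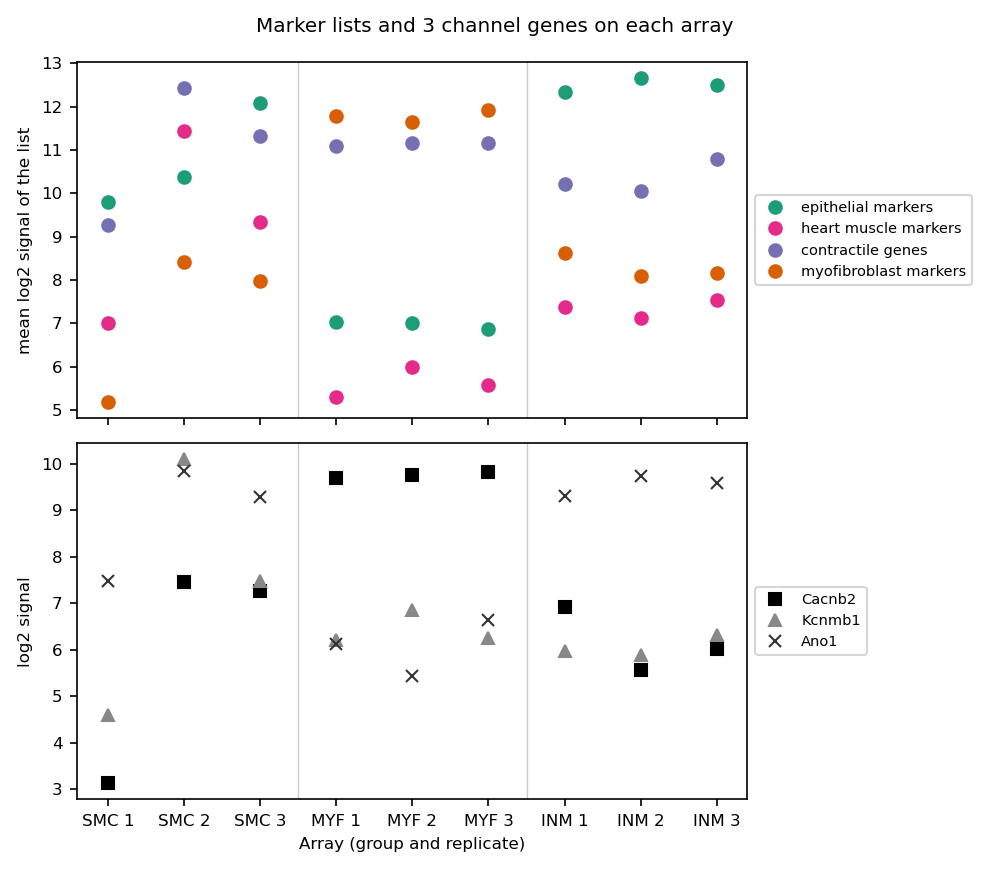
Upper panel, mean log2 signal of 4 marker lists (y axis) on each array (x axis), and lower panel, log2 signal of Cacnb2, Kcnmb1 and Ano1 on the same arrays, with grey lines between the groups. MYF has the lowest epithelial signal (6.87 to 7.04) and the lowest Ano1 (5.43 to 6.63), and its myofibroblast markers (11.64 to 11.93) and Cacnb2 (9.70 to 9.84) are the highest.

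Of 14 other subunits of voltage-gated calcium channels 5 passed higher in MYF than INM and 0 lower, with a median of 1.08 over the 14, beside 4.35% of all genes higher and 6.35% lower. Cacna1g, a T-type pore, was at 9.87 to 10.06 in MYF, 6.81 to 7.46 in INM and 6.54 and 5.46 in SMC replicates 2 and 3. It rose by 2.79 ± 0.35 in MYF over INM (limma adjusted p = 0.00254), and SMC minus MYF was -3.97 ± 0.39 (limma adjusted p = 0.0021). Cacna1g was the only one of the 14 to pass in SMC vs MYF, beside 4.66% of all genes higher and 3.54% lower. Cacna2d1 and Cacna2d3, alpha-2-delta subunits that raise the number of channels at the membrane, rose by 2.15 ± 0.37 and 3.47 ± 0.57 in MYF over INM. Cacna1e and Cacna1f, pores known from neurons and retina, rose by 1.61 ± 0.33 and 1.92 ± 0.49. In SMC vs INM none of the 14 passed by limma (0.247% of all genes did), the largest differences being -1.18 for Cacna1g and 1.08 for Cacna2d2. On all 9 arrays the numbers past the test were 0 in MYF vs INM (1.1% of all genes) and 1 in SMC vs MYF (0.671%).

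Of 25 other potassium channel genes tested, 3 rose and 6 fell in MYF relative to INM, beside 4.35% and 6.35% of all genes, and 5 were higher and 3 lower in SMC than in MYF, beside 4.66% and 3.54% of all genes. Kcnj8 and Abcc9, the pore and regulatory subunits of the ATP-sensitive potassium channel of mural cells, were higher in MYF than INM by 2.27 ± 0.54 and 1.55 ± 0.29. They fell by 3.20 and 1.92 in SMC relative to MYF (SE 0.61 and 0.33). Of 10 mural cell markers, which include both, 3 passed limma higher and 3 lower in MYF than INM (4.35% and 6.35% of all genes). Kcne4, an accessory subunit, was higher in MYF than INM by 1.88 ± 0.38. In the opposite direction Kcnmb2, a BK beta subunit that inactivates the channel, was at 2.07 to 3.36 in MYF, 8.14 to 9.20 in INM and 6.28 and 8.38 in SMC replicates 2 and 3 (MYF minus INM -5.85 ± 0.60, limma adjusted p = 0.00116). Kcnj2, an inward rectifier, and Kcnq1, a channel of epithelium and heart, were at -5.39 ± 0.36 and -4.57 ± 0.40 in MYF vs INM. Kcna1 was the 1 gene of the list past the test in SMC vs INM, at -2.42 ± 0.30 (limma adjusted p = 0.033, where 0.0906% of all genes were higher and 0.156% lower), though dim in every group of the 8 arrays (2.09 to 4.87). On all 9 arrays 2 of the 25 were lower in MYF than INM (0.927% of all genes, and 0.173% higher) and 2 higher in SMC than MYF (0.379%, and 0.292% lower), and none passed in SMC vs INM.

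Of 26 other genes of calcium stores and store-operated entry, 7 were higher and 2 lower in SMC than MYF (4.66% and 3.54% of all genes), and 2 rose and 4 fell in MYF relative to INM (4.35% and 6.35%). Sln, an inhibitor of the calcium pump of the sarcoplasmic reticulum in striated muscle, was at 11.78 and 8.75 in SMC replicates 2 and 3, 2.14 to 2.86 in MYF and 4.89 to 6.36 in INM. Ryr2, the ryanodine receptor of heart, was at 11.15 and 7.20 in SMC replicates 2 and 3, 2.34 to 4.02 in MYF and 4.81 to 6.02 in INM, and SMC minus MYF was 6.03 ± 1.05 (limma adjusted p = 0.0142). Casq2, the calcium buffer of the cardiac store, was higher in SMC than MYF by 5.15 ± 0.66. Sln, Ryr2 and Casq2 are known from heart muscle, whose markers were high on the same arrays, and Ryr2 stands in that marker list too. The part of heart muscle RNA in these differences was not tested. MYF minus INM was -3.08 ± 0.35 for Itpr3, an inositol trisphosphate receptor abundant in epithelium. For Atp2a3, a calcium pump of blood and epithelial cells, it was -4.42 ± 0.49. Atp2b1, a calcium pump of the plasma membrane, and Trpc1, a cation channel subunit, rose by 2.29 ± 0.39 and 1.92 ± 0.49 in MYF over INM. None of 11 other anoctamin and chloride transporter genes passed by limma in SMC vs MYF, SMC vs INM or MYF vs INM, beside 8.19%, 0.247% and 10.7% of all genes. Best3 and Ano10 had the largest differences of SMC vs MYF, at 1.56 ± 0.61 and -1.84 ± 0.62. On all 9 arrays no gene of these last 2 lists passed, beside 0.671%, 0% and 1.1% of all genes in the same order of comparisons. The lists were chosen with earlier results of these data known.

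**Figure D4:**
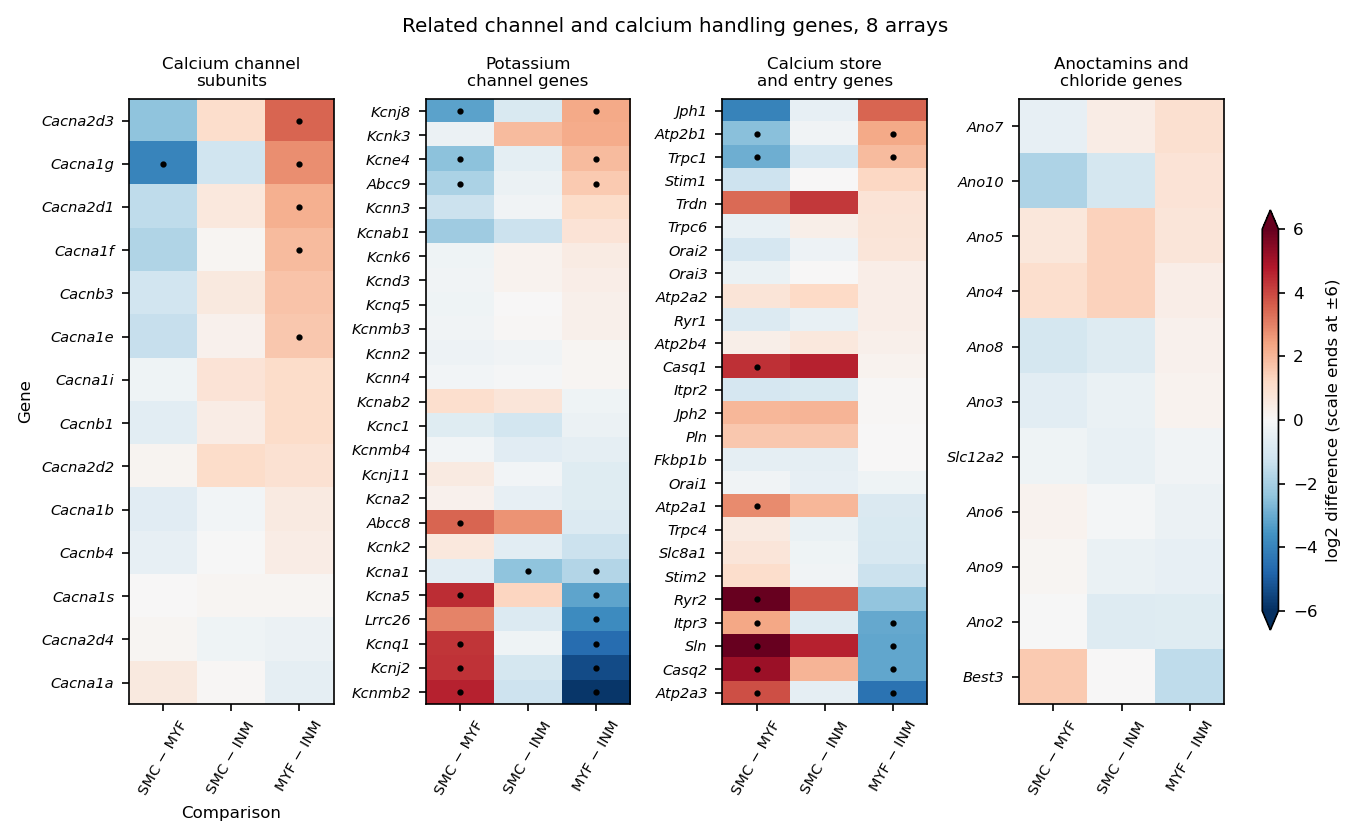
Log2 difference (colour, scale ending at ±6) of the genes of 4 related lists (rows) in the 3 comparisons on 8 arrays (columns), ordered by MYF minus INM. Black dots mark genes past limma's test over all genes. Calcium channel subunits with dots are red in MYF minus INM, from Cacna2d3 (3.47) to Cacna1e (1.61), while 6 potassium channel genes with dots are blue there, down to Kcnmb2 (-5.85).

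The genes whose pattern was most like a channel gene were sought by Pearson correlation over the 8 arrays among 12610 genes, as a description, because arrays of a group share their cells. Those nearest to Cacnb2 were Tcf7l2, a transcription factor of WNT signalling (r = 0.99), and Krtap16-3, a keratin-associated protein gene (r = 0.988). Kcnmb1 was most like Cfl2, the muscle cofilin (r = 0.982), and Smyd1, a methyltransferase of heart and skeletal muscle (r = 0.975). Ano1 was most like Chchd10, a mitochondrial protein gene (r = 0.991), and Kcnq1 (r = 0.986), which was also lower in MYF than in INM. Cacna1c was nearest to Gfm1, a mitochondrial elongation factor, and Scn4b, a sodium channel beta subunit (r = 0.974 for both). The highest r was 0.96 for Kcnma1 (Fbxw25), 0.947 for Cacna1d (Kalrn), 0.961 for Cacna1h (Dlst), 0.958 for Itpr1 (Gpn3) and 0.952 for Ryr3 (Gins1).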

How the data were processed

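The deposited values are log2 signals per feature of 9 one-colour Agilent arrays (Cy3). The submitters' processing notes name limma, with no version in the sources used here. The 9 columns share a mean of 5.89, an SD of 3 and a median of 5.17, as after quantile normalization, a step that no source used here states. Background correction is not stated, and 1197 empty cells in 733 features were left empty.

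Features took symbols from the platform annotation (43941 with 1 symbol, 0 with several, 19035 with none), updated through RefSeq. Each of 24306 genes was represented by its feature with the highest mean over 9 arrays. limma 3.58.1 (lmFit, then eBayes) was run on the log2 values in R 4.3.3 with data.table version 1.17.8, with 1 mean per group, no covariate, two-sided, Benjamini-Hochberg threshold 0.05 over all genes tested. The fit was tested on simulated data. The simulated spread came from the arrays without SMC replicate 1, so the test does not cover a fit that includes an array standing apart. Differences are first minus second group.

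Named genes were the 9 channel genes, up to 3 list genes past the test in each direction and comparison on 8 arrays (in their absence the 2 with the largest differences; not all are printed), the 2 genes most like each channel gene, and the sort genes Acta2 and Pdgfra. Cacna1e, Cacna1f and Itpr3 lie outside this rule and were chosen after their values were seen, as were the markers Sftpc, Epcam and Cdh1. The members, the 13 lists and the separate fit without SMC replicate 1 were chosen with earlier results of these data known. Same-numbered arrays of different groups had deviations correlating at -0.063 to 0.082 (9 pairs), so numbers were not used as pairs. Tests with every feature as the unit were added after seeing the data.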

Additional observations from a re-analysis of the deposited data

How the results depend on the processing

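With 9 arrays the counts past limma's test changed with the setting, while differences of Cacnb2 and Ano1 kept their sign in every setting run for SMC vs MYF and MYF vs INM. Of the 9 channel genes, SMC vs MYF gave 1 with the mean of all probes and 2 with array weights, and MYF vs INM gave 1 with genes below the median level left out, 2 with the mean of all probes, 1 with the probe of largest interquartile range, 3 with array weights and 2 with only the groups compared. All genes past the test in SMC vs MYF were 163, and 1 with the replicate block, 355 with the largest-range probe, 4276 with array weights and 0 with only the groups compared. In SMC vs INM they were 0, and 3 and 611 with the largest-range probe and array weights. In MYF vs INM they were 267, and 0 with the replicate block, 451 and 441 with the mean of probes and the largest-range probe, 4726 with array weights and 3635 with only the groups compared.

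On the 8 arrays, SMC vs MYF gave 1 channel gene under the replicate block or array weights, in both of which Cacnb2 missed the threshold (adjusted p = 0.0562 and 0.073), and 3 with genes below the median level left out, where Kcnmb1 passed. MYF vs INM gave 3 with that filter, with the mean of all probes and with array weights, in each of which Kcnma1 passed. All genes were 1990, and 767, 773 and 626 with the replicate block, array weights and only the groups compared. SMC vs INM had 60, and 0 with the replicate block, 111 without dim genes, 117 with a variance trend, 3 with array weights and 0 with only the groups compared. MYF vs INM had 2598, and 1577 and 4514 with the replicate block and array weights. The replicate block was not read as a pairing, because the labels give numbers only.

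Leaving out 1 array gave, on 9 arrays, 0 to 2 channel genes in SMC vs MYF, 0 to 0 in SMC vs INM and 0 to 2 in MYF vs INM, and 0 to 1990, 0 to 60 and 0 to 2598 genes in all, with each highest count above 0 reached without SMC replicate 1. Leaving out a further array from the 8 gave 1 to 3, 0 to 1 and 2 to 2 channel genes, and 817 to 4045, 5 to 984 and 1139 to 3635 genes in all. Signs turned, with an unadjusted p under 0.05 in at least 1 of the settings compared, for Cacna1d and Ryr3 in SMC vs INM (-1.89 and -1.88, 8 arrays, and -2.28 for Ryr3 on 9) and for Cacna1c in MYF vs INM (1.07), all with the largest-range probe, a different feature of the gene. Cacnb2 in SMC vs INM on 9 arrays ranged from -0.97 to 1.19 when an array was left out, the highest without SMC replicate 1. The cause was not tested. The SMC group of 2 arrays limits what can be separated.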
